A study of Mus musculus with 9 samples.

Results

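Caspases are proteases that cut other proteins next to aspartate during apoptosis, and the apoptosome is the complex that starts their activity once mitochondria release cytochrome c. The 8 genes described here are the caspase genes Casp2, Casp6, Casp8 and Casp9, the apoptosome scaffold gene Apaf1, and the genes of 3 regulators, Xiap, Diablo and Cflar. They were taken by symbol from a table of 27179 gene identifiers, through the NCBI Gene ID of each row. All 8 were found, and all 8 were among the 13129 genes with enough counts to be tested.

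The counts come from RNA immunoprecipitation sequencing (RIP-seq) of activated mouse B cells, in which RNA is recovered together with a protein and sequenced. CD43-negative B cells of wild-type mouse spleen were cultured for 72 h with CD40L (5 ug/mL), anti-IgM (10 ug/mL) and IL-4 (20 ng/mL), and the study's methods name an antibody to CD40 in place of the ligand. Part of the lysate was kept as input, and the rest was precipitated with normal rabbit IgG or an antibody to phosphorylated UPF1 (p-UPF1), with 3 libraries in each of the 3 groups. All groups share the genotype and the stimulation. The labels give no age, strain or animal for a library. The study's methods state for its mice in general that they were age-matched young adults of both sexes, name C57BL/6 as the background of the engineered lines, and call the data points of its graphs independent biological replicates. None of this is stated for the 9 libraries themselves, so the P values measure the spread between these libraries, which may be technical.

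UPF1 is an RNA helicase of nonsense-mediated decay (NMD), the pathway that degrades mRNAs on which a ribosome stops at a stop codon read as premature. It is phosphorylated by SMG1 when decay begins, and the phosphorylated form recruits the factors that cut or shorten the mRNA. A stop codon followed by a further exon junction and a long 3' UTR are features known to bring UPF1 into play. In the intrinsic pathway of apoptosis, APAF1 assembles around cytochrome c and activates caspase-9. In the extrinsic pathway, death receptors activate caspase-8 through FADD. Inhibitors such as c-FLIP, the product of Cflar, hold this pathway back in activated lymphocytes.

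The question put to the data was which of the 8 mRNAs were more abundant in p-UPF1 precipitates than in the IgG precipitates, which measure binding to beads and to a nonspecific antibody, and than in the input, which measures the level in the lysate. Casp9, Cflar and Casp2 were higher in p-UPF1 libraries than in both backgrounds, Casp6, Casp8 and Diablo were lower than in both, and Apaf1 and Xiap were lower than in IgG only. Only Casp9 and Cflar met the criterion of the study's methods for a p-UPF1-bound RNA.

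Libraries held 17372510 to 24945286 counts, with the 3 IgG libraries the shallowest. The libraries of a group differed by more than counting noise, with a chi-square per degree of freedom of 1.38 to 1.73 in input, 2.83 to 4.04 in p-UPF1 and 4.64 to 9.94 in IgG. All 6 B cell markers were tested, and their summed level in CPM (counts scaled to a common library size) was 3200 to 3223 in input, 2494 to 2584 with IgG and 2398 to 2471 with p-UPF1. Of 5 T cell markers only Thy1 was tested (29.6 to 32.1 CPM summed over the list in input, 12.3 to 17.2 in IgG, 16.1 to 16.8 in p-UPF1), while Cd3e, Cd3g, Cd4 and Cd8a stayed at or below 0.365 CPM. Of 5 myeloid markers only Adgre1 was tested (list sum 127 to 139 CPM in input, 85.9 to 91.5 in IgG, 57.2 to 59.3 in p-UPF1), with Ly6g at 0, and none of 4 erythroid markers was, with a sum of at most 0.858 CPM and with Hbb-bs and Hba-a1 at 0. The part of these cells in the results was not tested. Input and precipitates are parts of the same kind of lysate, and in such bulk samples the level of an mRNA does not tell the number of cells that hold it from the amount per cell. The mRNA of Upf1 itself had 503 ± 2.63 CPM with p-UPF1, 119 ± 3.60 with IgG and 122 ± 1.02 in input (SD, n = 3).

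The 4 caspase genes share the short coding stretch around the catalytic cysteine, and CFLAR is built like caspase-8 but carries another residue in that place. The stretches are shown because this codon is a feature that separates the proteases of the family from their decoy. Each is read 5' to 3' on the coding strand of GRCm38 (mm10), from a GENCODE M21 transcript, with the cysteine codon or the codon in its place in capitals.
Casp9: ttcatccaggccTGCggtggtgagcag
Casp2: ttcatccaagcaTGTcgtggagatgag
Casp8: ttcattcaggctTGCcaaggaagtaac
Casp6: atcatccaggccTGTcggggtagccag
Cflar: tttattcagaacTATgagtcgttaggt
The capitals lie at chr4:141807253-141807255 in Casp9, chr6:42276776-42276778 in Casp2, chr1:58844619-58844621 in Casp8, chr3:129912121-129912123 in Casp6 and chr1:58752623-58752625 in Cflar, all on the plus strand and in coding exons. The Cflar codon TAT, which encodes tyrosine, lies at the same distance from the stretch shared with Casp8 just before it.

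Casp9 (Gene ID 12371, chr4:141793612-141815978, plus strand) encodes the initiator caspase of the apoptosome, which APAF1 activates and which in turn cuts the executioner caspases. Its level, in CPM scaled by trimmed mean of M values (TMM), was 22.7, 22.6 and 22.4 in the input libraries A, B and C, 22.7, 23.9 and 21.7 in the IgG libraries and 102, 101 and 102 in the p-UPF1 libraries. Input and IgG libraries overlapped, and every p-UPF1 library lay far above them. The log2 fold change of p-UPF1 was 2.15 over IgG (SE 0.05, edgeR adjusted P 8.70e-16) and 2.17 over input (SE 0.05, edgeR adjusted P 5.66e-16), or 4.45-fold and 4.50-fold. IgG and input differed by 0.01 on the log2 scale (SE 0.06, edgeR adjusted P 0.859). Of the 8 mRNAs, Casp9 had the highest change over IgG, at a value that 5.56% of all tested genes reached or passed. The gene overlaps Cela2a on the other strand over 1025 bases, and Cela2a had 0 to 1 counts in every library.

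Casp2 (Gene ID 12366, chr6:42264902-42282508, plus strand) encodes the initiator caspase that the PIDDosome activates, a complex that responds to DNA damage and extra centrosomes. Its level was 93.9, 93.7 and 93.6 CPM in the input libraries, 107, 126 and 124 with IgG, and 298, 306 and 275 with p-UPF1. The 3 groups did not overlap, with IgG above input and p-UPF1 above both. On the log2 scale the change was 1.30 over IgG (SE 0.06, edgeR adjusted P 1.91e-12) and 1.64 over input (SE 0.06, edgeR adjusted P 8.41e-14). Casp2 therefore passed both tests and the fold minimum over IgG, and missed the fold minimum over input, which the criterion sets at a log2 value of 2.

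Casp8 (Gene ID 12370, chr1:58795233-58847503, plus strand) encodes the initiator caspase of death receptor signalling, which also restrains necroptosis. Its level was 82.5, 80.3 and 80.6 CPM in the input libraries, 100.2, 97.9 and 112 with IgG, and 53.3, 51.8 and 52.3 with p-UPF1. Every p-UPF1 library lay below every other library. The log2 fold change was -0.98 over IgG (SE 0.05, edgeR adjusted P 2.57e-11) and -0.63 over input (SE 0.05, edgeR adjusted P 9.04e-09). Since IgG libraries exceeded input by 0.35 on the log2 scale (SE 0.05, edgeR adjusted P 3.21e-05), the fall was larger against IgG than against input.

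Casp6 (Gene ID 12368, chr3:129901415-129914112, plus strand) encodes an executioner caspase that cuts nuclear lamins. Its level was 29.8, 33.0 and 28.9 CPM in the input libraries, 22.8, 27.5 and 27.4 with IgG, and 8.89, 10.2 and 9.65 with p-UPF1. The p-UPF1 libraries lay well below all others and rested on at least 211 counts each. On the log2 scale the change was -1.44 over IgG (SE 0.09, edgeR adjusted P 3.85e-10) and -1.68 over input (SE 0.09, edgeR adjusted P 3.39e-11), the lowest of the 8 in both contrasts. The gene overlaps the lncRNA gene Gm40150 on the same strand over 3864 bases, and Gm40150 has no row in the table used here. Of all tested genes, 86.5% were at or above this value over IgG and 86.7% over input.

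**Figure D1:**
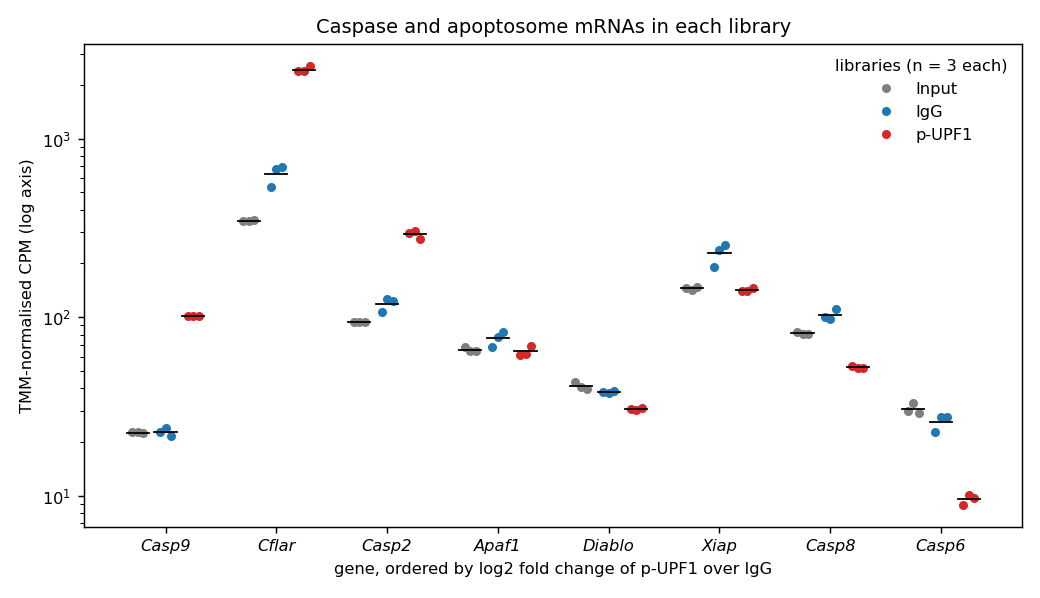
TMM-normalised CPM on a log axis of the 8 mRNAs in each of the 3 input, 3 IgG and 3 p-UPF1 libraries, with genes in the order of their log2 fold change over IgG. Each point is a library: the p-UPF1 points of Casp9, Cflar and Casp2 lie above all others, those of Casp6, Casp8 and Diablo lie below all others, and those of Apaf1 and Xiap overlap with input.

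Apaf1 (Gene ID 11783, chr10:90989311-91082743, minus strand) encodes the scaffold of the apoptosome. Its level was 68.2, 64.7 and 64.9 CPM in the input libraries, 68.4, 77.2 and 83.1 with IgG, and 61.3, 62.6 and 69.3 with p-UPF1. The p-UPF1 libraries overlapped with those of both other groups. The log2 fold change was -0.24 over IgG (SE 0.07, edgeR adjusted P 0.00307) and -0.04 over input (SE 0.07, edgeR adjusted P 0.631). Thus the mRNA of the scaffold did not pass the test over input, while that of its partner Casp9 rose in the same libraries. Apaf1 shares 7 bases with Ikbip on the other strand, which had 156 to 217 counts in input, 89 to 166 with IgG and 56 to 59 with p-UPF1.

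Cflar (Gene ID 12633, chr1:58711311-58758884, plus strand) encodes c-FLIP, which binds FADD and caspase-8 at death receptors and limits their activity. Its level was 346, 348 and 350.4 CPM in the input libraries, 537, 676 and 695 with IgG, and 2385, 2381 and 2558 with p-UPF1. All 3 groups stood apart, and the p-UPF1 values rested on up to 56620 counts in a library. On the log2 scale the change was 2.81 over input (SE 0.07, edgeR adjusted P 1.64e-15) and 1.94 over IgG (SE 0.07, edgeR adjusted P 1.46e-13), or 7.02-fold and 3.84-fold. Only 1.28% of all tested genes reached the value over input, against 7.71% for the value over IgG. The IgG libraries also exceeded input, by 0.87 on the log2 scale (SE 0.07, edgeR adjusted P 5.80e-08), so that for Cflar the choice of background changed the size of the difference most among the 8.

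Cflar and Casp8 lie on the same strand of chromosome 1, 36348 bases apart, with 1 annotated gene, Gm39646, between them. Their proteins act on each other, but their mRNAs went in opposite directions. Cflar was higher and Casp8 lower in p-UPF1 libraries against both backgrounds, and no library of either gene went against its group.

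Xiap (Gene ID 11798, chrX:42059613-42109664, plus strand) encodes an inhibitor that binds caspase-9 and the executioner caspases. Its level was 145, 143 and 147 CPM in the input libraries, 192, 239 and 254 with IgG, and 139.9, 141 and 146 with p-UPF1. The p-UPF1 libraries overlapped with input and lay below every IgG library. The log2 fold change was -0.68 over IgG (SE 0.07, edgeR adjusted P 1.95e-07) and -0.03 over input (SE 0.07, edgeR adjusted P 0.724), while IgG exceeded input by 0.65 (SE 0.07, edgeR adjusted P 1.69e-06). The fall over IgG thus stood beside a rise of IgG over input of about the same size.

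Diablo (Gene ID 66593, chr5:123511330-123524164, minus strand) encodes the mitochondrial protein that displaces XIAP from caspases once it reaches the cytosol. Its level was 43.3, 40.9 and 39.7 CPM in the input libraries, 38.0, 37.5 and 38.6 with IgG, and 30.8, 30.4 and 31.1 with p-UPF1. The p-UPF1 libraries lay below all others, by a small margin. On the log2 scale the change was -0.31 over IgG (SE 0.06, edgeR adjusted P 1.06e-04) and -0.43 over input (SE 0.06, edgeR adjusted P 2.27e-06). Diablo overlaps B3gnt4 on the other strand over 553 bases, and B3gnt4 had 4 to 10 counts in input, 8 to 12 with IgG and 45 to 50 with p-UPF1.

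Counted together, 3 of the 8 mRNAs were higher in p-UPF1 than in IgG libraries, where 40.4% of all 13129 tested genes were, and 5 were lower, where 42.2% were (edgeR quasi-likelihood test, adjusted P under 0.05). Over input 3 were higher, 3 lower and 2 did not pass, against 40.8% higher and 42.6% lower of all tested genes. The median log2 fold change of the 8 was -0.27 over IgG and -0.03 over input, and that of all tested genes was -0.03 in both contrasts. With calls on more than 4 in 5 genes in the contrast with IgG, a call alone says little about an mRNA, and the counts of higher members were near the shares of all genes. The members were chosen with earlier results of these data known. Here and below, the shares of all genes are thus context for the members' counts and no test of them. Both contrasts use the same p-UPF1 libraries and are not independent of each other. The amount of RNA in each precipitate is not in the counts, so a log2 fold change of 0 means that an mRNA behaved like the typical RNA of the libraries.

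The study's methods call an RNA bound where its log2 fold change reaches 1 against IgG and 2 against input, with an adjusted P under 0.05 in each test. Casp9 and Cflar, 2 of the 8, met it, as did 820 or 6.25% of the tested genes. Casp9, at 2.17, lay just above the band around the minimum over input, between 1.9 and 2.1, that held 286 genes. In all of 23 alternative analyses Casp9 and Cflar met the criterion and the other 6 did not. In 3 of the 8 mRNAs every p-UPF1 library lay above all 6 others, as in 37.0% of tested genes, and in 3 every p-UPF1 library lay below them, as in 37.6%.

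**Figure D2:**
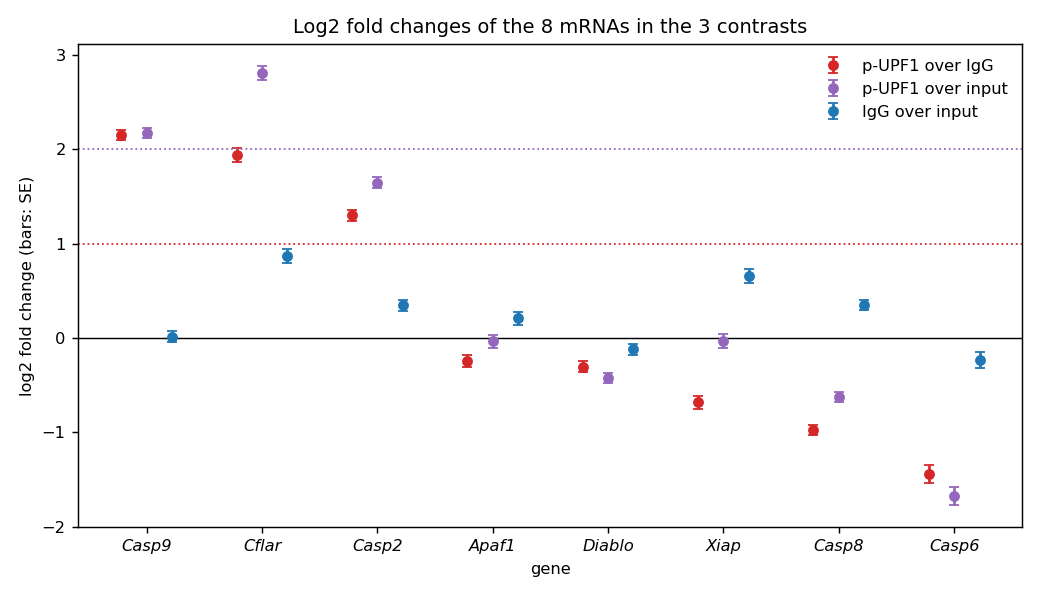
Log2 fold changes (points) with SE (bars) of the 8 mRNAs for p-UPF1 against each background and for IgG over input, from the fit on all 9 libraries. Casp9 had the same change over both backgrounds (2.15 and 2.17), while Cflar, Xiap and Casp8 had IgG levels above input by 0.87, 0.65 and 0.35.

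The contrast of IgG over input shows what the precipitation brought down without the specific antibody. Of the 8 mRNAs, 5 were higher in IgG than in input (Cflar, Xiap, Casp8, Casp2 and Apaf1), where 18.2% of all tested genes were, and 1 was lower (Casp6, log2 fold change -0.24, SE 0.08, edgeR adjusted P 0.0273), where 34.7% were. Their median was 0.28 against -0.10 for all tested genes. Casp6 lost its call in 10 of the alternative analyses, with values of -0.21 to -0.12 (edgeR or DESeq2 adjusted P 0.0533 to 0.231), among them those without IgG library A (-0.16) and without input library B (-0.19). Apaf1, at 0.21 (SE 0.07, edgeR adjusted P 0.0152), lost it without IgG library C (0.13, edgeR adjusted P 0.105), without input library B (0.19, edgeR adjusted P 0.0707) and without input library C (0.19, edgeR adjusted P 0.0701). IgG library A was the lowest of the 3 IgG libraries in 5 of the 8 mRNAs (Casp2, Casp6, Apaf1, Xiap and Cflar), or 62.5%, and in 40.9% of all tested genes.

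Levels of different genes were compared as CPM per kilobase of the chosen transcript. In input the order was Cflar (52.9 ± 0.353 CPM per kb), Casp8 (31.4 ± 0.459), Casp2 (26.6 ± 0.0495), Diablo (26.2 ± 1.17), Xiap (21.2 ± 0.313), Casp6 (20.99 ± 1.46), Apaf1 (10.0 ± 0.300) and Casp9 (5.79 ± 0.0409; SD, n = 3). Casp2 and Diablo overlapped, as did Xiap and Casp6. Per kb of the chosen transcripts, Casp9 was thus the lowest of the 8 mRNAs in the lysate. Its chosen transcript has 3897 bases, and its coding transcript Casp9-202, with 1498 bases, would give a higher level per kb.

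In p-UPF1 libraries Cflar again came first (371 ± 15.3 CPM per kb), followed by Casp2 (83.0 ± 4.47) and Casp9 (26.0 ± 0.120; SD, n = 3). Next came Xiap (20.8 ± 0.452), Casp8 (20.3 ± 0.300), Diablo (19.5 ± 0.240), Apaf1 (9.79 ± 0.658) and Casp6 (6.57 ± 0.439), with Xiap and Casp8 overlapping. Casp9 was last in input and in IgG (5.84 CPM per kb) and the third in p-UPF1 libraries. The level per kb assumes that the chosen transcript carries the reads of its gene, which gene counts cannot show.

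Structure of the transcripts was described from GENCODE M21, with no test. The longest 3' UTRs were those of Cflar-205 (4962 bases) and Xiap-201 (4672 bases), which only 3.63% and 4.35% of tested genes with features matched or passed. The 3' UTRs of Casp9-201 (2289 bases), Apaf1-201 (2132) and Casp2-201 (2031) followed, then those of Diablo-203 (806), Casp8-201 (749) and Casp6-201 (530). The median was 1016 bases over all 11866 tested genes with features, 1684 in bound genes and 962 in the others. In the chosen transcripts, the 3 mRNAs with higher p-UPF1 levels had 3' UTRs above the median of 1016 bases. The 3 that were lower than both backgrounds had ones below it. Xiap and Apaf1 did not follow that order, with long 3' UTRs and no call over input. Some other coding transcripts lie across the median, among them Casp9-202 (37 bases), Cflar-202 (54) and Diablo-207 (2098). Others stay on the same side, such as Cflar-201 (1243), Diablo-201 (143) and Casp8-202 (254). Gene counts cannot show which transcripts carry the reads, so the order holds for the chosen transcripts only.

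**Figure D3:**
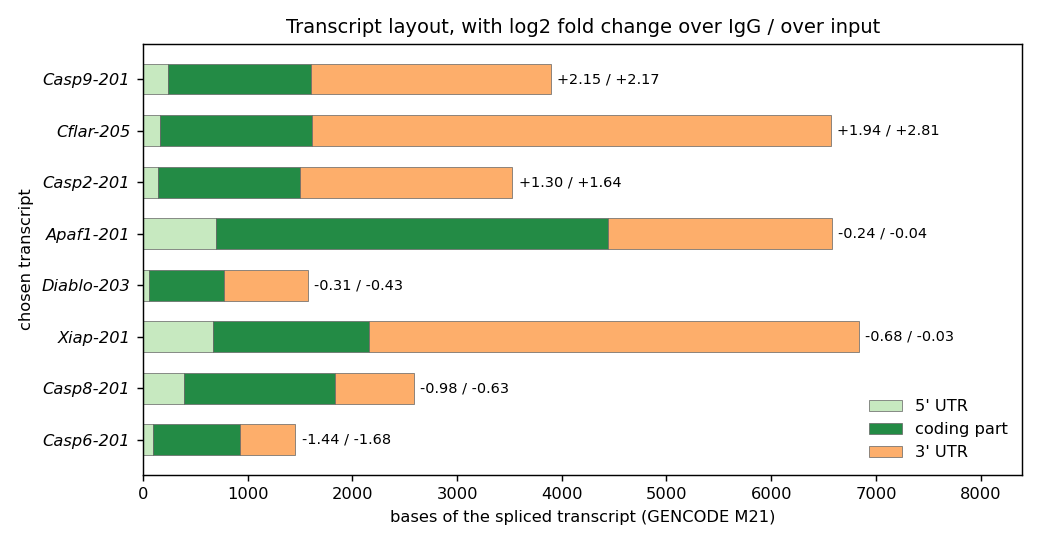
Length in bases of the 5' UTR, coding part and 3' UTR of the chosen GENCODE M21 transcript of each gene, ordered by log2 fold change over IgG, with the log2 fold changes against IgG and then input printed at the right. Cflar-205 and Xiap-201 have 3' UTRs of 4962 and 4672 bases and log2 fold changes over input of 2.81 and -0.03.

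GENCODE annotates transcripts as NMD substrates in 2 of the 8 genes, Casp2 with 1 and Diablo with 2, and such a transcript is annotated in 29.0% of 12032 tested genes, in 26.5% of 766 bound ones and in 29.2% of the others. Casp9 and Cflar, the bound ones, have none among 6 and 13 annotated transcripts. Casp2-209 has an additional exon of 61 bases (chr6:42276870-42276930) that Casp2-201 lacks, and its coding part ends after 1032 bases in place of 1359. After its stop codon come 2 exon junctions, the last of them 256 bases downstream. Diablo-205 keeps the stop codon of Diablo-203 but has an additional last exon of 1454 bases (chr5:123509765-123511218), which puts a junction 1195 bases after the stop. Diablo-206 holds an exon of 329 bases and stops after 474 coding bases, with a junction 164 bases later. Gene counts do not separate these transcripts from the main ones.

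The coding ends are shown because the stop codon and the junctions after it are the features that the annotation of decay rests on. Capitals mark the stop codon, and each run gives the last coding bases on the coding strand.
Casp2-201: tacctgttcccaggctacccacccacgTGA
Casp2-209: actgctgccaccgcctctcttgctctaTGA
Diablo-203 and Diablo-205: gaagaggaggcctacctgcgtgaagatTGA
Diablo-206: catattagtgggcttcattatggcatcTAA
The stop codons lie at chr6:42280475-42280477 in Casp2-201 and chr6:42279778-42279780 in Casp2-209 (plus strand), and at chr5:123512511-123512513 in Diablo-203 and Diablo-205 and chr5:123517901-123517903 in Diablo-206 (minus strand). Of the genes that carry such an annotation, Casp2 was higher and Diablo lower in p-UPF1 libraries.

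Beside the 8 members, 47 other genes of caspase-dependent cell death were listed, of which 41 were tested. Over IgG 18 were higher, 19 lower and 4 did not pass, and their median log2 fold change was 0.03. Over input the counts were 18, 19 and 4 and the median -0.06. These shares were near those of all tested genes. The lists, too, were chosen with earlier results known, so the shares of all genes do not test the list counts given here and below. Of the 41, 2 met the criterion for bound RNA, Bid and Fasl, against 6.25% of all tested genes.

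Among upstream genes, the death receptors and adaptors had 6 higher, 4 lower and 2 not past the test of 12 tested, over IgG as over input, near the 40.4% higher and 42.2% lower over IgG of all tested genes. The highest over IgG was Dedd2, which encodes a protein with a death effector domain, with 82.1 ± 3.62 CPM with p-UPF1, 19.8 ± 1.03 with IgG and 21.1 ± 1.67 in input (SD, n = 3). This was a log2 fold change of 2.05 against IgG (SE 0.07) and 1.96 against input (SE 0.07), just short of the minimum (edgeR adjusted P 3.31e-14 and 3.91e-14). Fadd, the adaptor between death receptors and caspase-8, rose by 1.91 over IgG and 1.29 over input on the log2 scale (edgeR adjusted P 1.01e-11 and 6.48e-10). Fasl, the ligand of the receptor Fas, met the criterion with a log2 fold change of 1.42 over IgG (SE 0.36, edgeR adjusted P 0.00162) and 2.03 over input (SE 0.38, edgeR adjusted P 1.05e-04). It rested on few counts, 11 to 16 in input, 8 to 30 with IgG and 42 to 73 with p-UPF1. Without p-UPF1 library A, p-UPF1 library B or input library B it no longer met the criterion, nor did it with all libraries under library size alone, upper-quartile factors, limma-voom, a prior count of 2 or a test against the fold minimum (glmTreat). Each of these left 1 of the 41 genes, Bid. FASL is best known from T cells and natural killer cells, and of the 5 T cell markers Thy1 had 28.8 to 31.6 CPM in input, 12.2 to 16.8 with IgG and 16.0 to 16.6 with p-UPF1, while Cd3e, Cd3g, Cd4 and Cd8a were at or below 0.365 CPM in every library. The part of other cells in the level of Fasl was not tested. The lowest was Ripk3, the kinase of necroptosis, at -1.09 in both contrasts (edgeR adjusted P 2.71e-11 and 2.12e-11).

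The 2 genes that make the PIDDosome with Casp2 went apart. Pidd1, its core, had 63.8 ± 3.02 CPM with p-UPF1, 22.9 ± 1.95 with IgG and 18.5 ± 0.184 in input (SD, n = 3), or log2 fold changes of 1.48 and 1.79 against IgG and input (edgeR adjusted P 2.15e-12 and 1.83e-13). Cradd, the adaptor that joins PIDD1 to caspase-2, had -0.53 and -1.14 (edgeR adjusted P 1.02e-05 and 3.63e-10). Pidd1 and Casp2 were thus both higher than in each background and both below the minimum over input.

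The list of mitochondrial and apoptosome factors leaves out Apaf1 and Casp9, which are among the 8 members. Of these, Casp9 was higher than both backgrounds and Apaf1 was lower than IgG only. All 7 tested genes of the list were lower in p-UPF1 libraries over both backgrounds, where 42.2% (over IgG) and 42.6% (over input) of all tested genes were. The median log2 fold change of the list was -1.53 against IgG and -1.61 against input. All 7 remained lower in each of 21 alternative analyses, with medians of -1.69 to -1.44 and -1.68 to -1.48. Siva1, a proapoptotic gene, was the lowest, with 4.74 ± 0.560 CPM with p-UPF1, 23.8 ± 3.64 with IgG and 34.7 ± 0.529 in input (SD, n = 3), or log2 fold changes of -2.33 and -2.87 (edgeR adjusted P 1.35e-11 and 4.37e-13). Cycs, which encodes the cytochrome c that opens APAF1, had -1.07 and -1.61 (edgeR adjusted P 3.88e-08 and 9.56e-11). Htra2, a mitochondrial protease that like DIABLO binds XIAP, was the least changed at -0.64 and -0.50 (edgeR adjusted P 3.64e-08 and 7.75e-07). In this list 4 of 7 were also lower in IgG than in input, as were 34.7% of all tested genes, so IgG and input are not interchangeable as backgrounds for these mRNAs.

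Of the other inhibitor of apoptosis genes, 3 were higher, 3 lower and 1 did not pass over IgG, where 40.4% of all tested genes were higher and 42.2% lower. The highest over IgG was Birc3, which encodes an E3 ligase of NF-kB signalling, at 0.66, with 0.82 over input (edgeR adjusted P 1.35e-10 and 7.11e-12). The lowest was Birc5, which encodes survivin, a protein of cell division, at -0.68 and -1.09 (edgeR adjusted P 2.12e-08 and 2.86e-11). Several Naip genes are near copies of each other, so their counts are uncertain.

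Of the other caspases, Casp1, the inflammatory caspase, was the lowest over IgG, at -1.60, with -1.62 over input (edgeR adjusted P 2.62e-13 and 1.75e-13). It thus fell against both backgrounds, as Casp6 and Casp8 did.

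Of 9 tested caspase substrates, 6 were higher and 2 lower over IgG, and 7 were higher and 2 lower over input. Of all tested genes, 40.4% were higher and 42.2% lower over IgG, and 40.8% and 42.6% over input. Bid, which caspase-8 cuts to carry the signal to mitochondria, had the highest change of all listed genes, with 559 ± 17.9 CPM with p-UPF1, 66.6 ± 4.09 with IgG and 77.1 ± 1.15 in input (SD, n = 3). It rose on the log2 scale by 3.07 over IgG (SE 0.05, edgeR adjusted P 9.17e-18) and 2.86 over input (SE 0.05, edgeR adjusted P 9.28e-18). Dffa and Dffb, the inhibitor and the nuclease of apoptotic DNA fragmentation, rose by 1.33 and 1.19 over IgG (edgeR adjusted P 3.84e-13 and 3.35e-10). Lmnb1, a lamin, was the lowest at -1.55 and -1.65 (edgeR adjusted P 1.77e-14 and 6.38e-15).

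**Figure D4:**
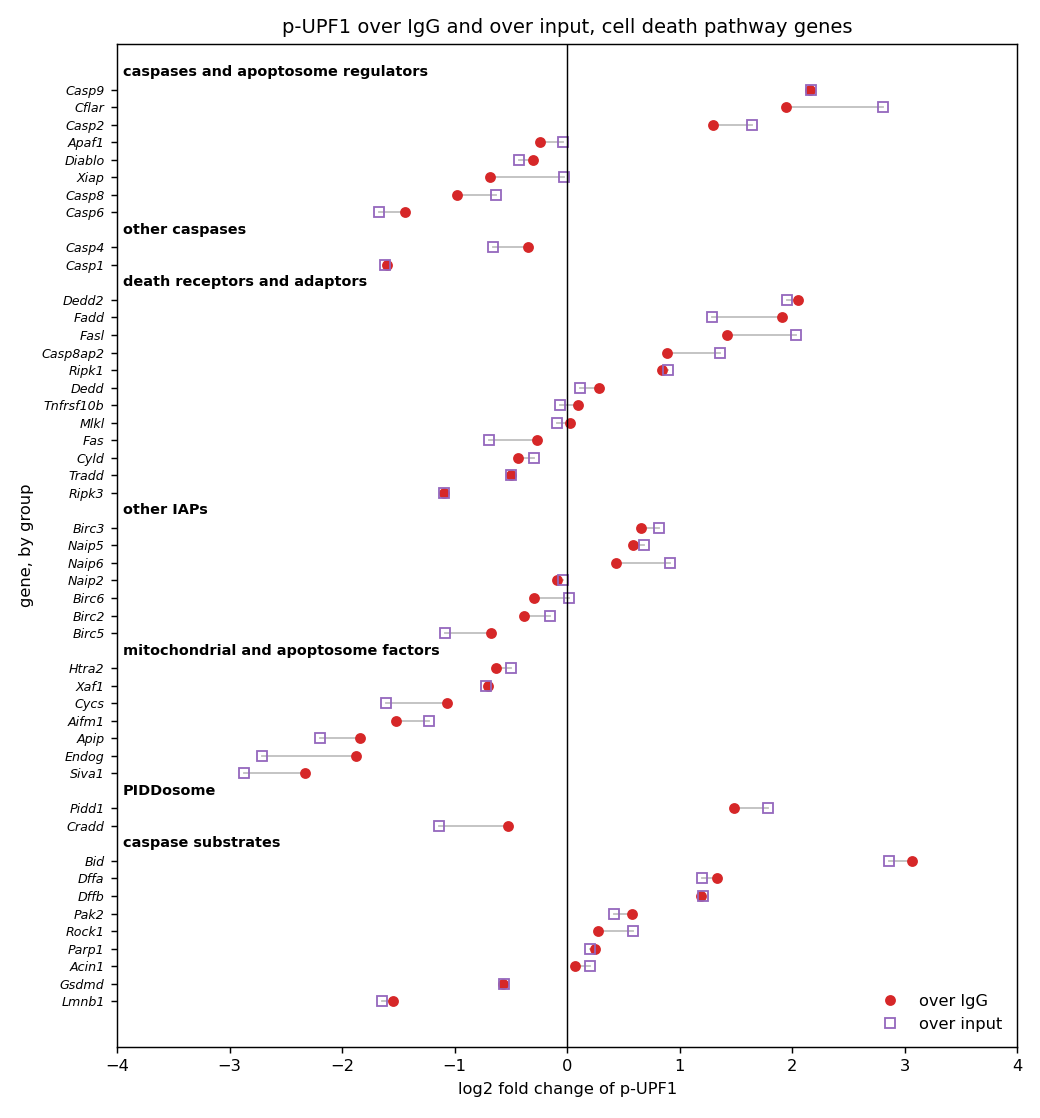
Log2 fold changes of p-UPF1 over IgG (filled circles) and over input (open squares) for the 8 members and for genes of the other lists, by group. Bid lies farthest to the right at 3.07 and 2.86. The 7 genes listed as mitochondrial and apoptosome factors, without Apaf1 and Casp9, all lie left of 0.

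Genes whose pattern over the 9 libraries was most like that of Casp9 and of Casp6, the highest and the lowest of the 8 over IgG, were found by the Euclidean distance of log2 CPM centred on each gene's mean, among 8992 genes of at least 10 CPM. For Casp9 these were Sirpa (distance 0.110), Dnajc5 (0.122) and Pip4k2c (0.141), with log2 fold changes over IgG of 2.08, 2.20 and 2.11. For Casp6 they were Cstf2t (0.168), Alas1 (0.190) and Ldha (0.190), with -1.50, -1.41 and -1.35. Each set is a description over libraries that fall into 3 groups.

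**Figure D5:**
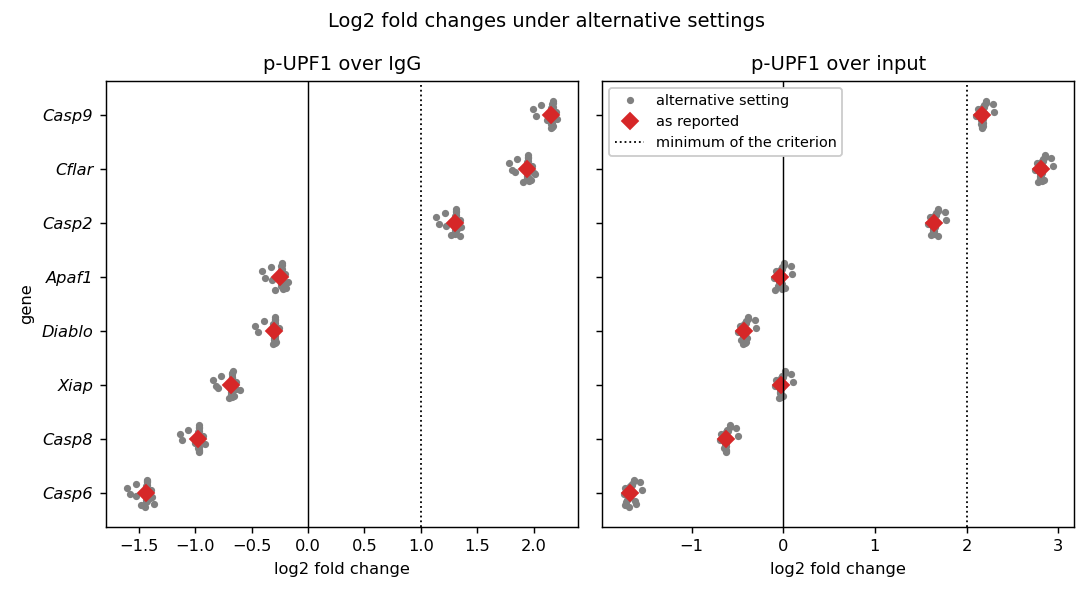
Log2 fold change of p-UPF1 over IgG (left) and over input (right) of each mRNA as reported (diamonds) and under each alternative setting (grey points), with the fold minimum of the criterion as a dotted line. Casp9 stays at 2.10 or above over input, Casp2 stays at 1.78 or below, and the points of Apaf1 and Xiap over input fall on both sides of 0.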

How the data were processed

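Per the labels, polyA RNA and a directional kit were used for the libraries, which were read on a NextSeq 500. The values deposited by the authors are raw counts per gene, with no scaling. The submitters' processing notes name cutadapt, HISAT2, featureCounts and mm10, with versions not given in the sources used here. The methods describe unstranded counting for RNA-seq only. If strand was ignored here too, a gene cannot be told apart from one that overlaps it on the other strand. Reads carry no molecular identifiers.

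Genes were filtered with filterByExpr (minimum count 10, minimum total 15), which left 13129 genes with 99.9% of counts. They were scaled by TMM and fitted in edgeR 4.0.16 (R 4.3.3) on all 9 libraries with group as the only term and 6 residual degrees of freedom. Contrasts were tested by the two-sided quasi-likelihood test with Benjamini-Hochberg adjustment over all tested genes. A prior count of 0.125 entered the log2 fold changes, and SE was derived from the test statistic. The fit was tested on simulated data, where it did not reach the first bar set for recovering genes with the smaller of the fold changes put in. The bar was then restricted to genes of at least 1 CPM, which it passed. Some of the missed genes had at least 1 CPM. DESeq2 1.42.0 and limma 3.58.1 served as alternatives, beside other scalings, filters, priors and thresholds and leaving out each library.

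Columns carry the letters A to C where the labels number replicates, so columns were assigned by group only. Deviations from the group means of same-letter libraries correlated at 0.104 to 0.202 between p-UPF1 and IgG, 0.105 to 0.156 between p-UPF1 and input and 0.0674 to 0.153 between IgG and input (8992 genes), and those of other pairs at -0.144 to 0.0308. The labels do not say that letters pair libraries, and a fit with the letter as a block was an alternative. Symbols and positions are from RefSeq GRCm38.p6, which named 25275 of 27179 identifiers. Transcripts are from GENCODE M21, choosing the APPRIS principal, then the basic one, then the longest coding part, then the longest transcript. All 55 listed genes were found. The members and lists were chosen with earlier results of these data known. All members were named, with the highest and lowest gene over IgG of each list, each gene meeting the criterion, and others by value. Some items within this rule are not reported here.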

Additional observations from a re-analysis of the deposited data

How the results depend on the processing

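No called result of the 8 members reversed its direction in the 21 alternatives that gave fold changes. The other pathway genes were followed there by list counts and medians, not gene by gene. The 2 bound members were the same genes in all 23 alternatives, which add a test against the fold minimum and an adjusted P under 0.01. Over the 12 alternatives that gave fold changes and kept all libraries, the log2 fold change of Casp9 over input was 2.10 to 2.30 and over IgG 1.99 to 2.20, that of Cflar over IgG 1.78 to 1.99, and those of Apaf1 and Xiap over input -0.10 to 0.10, never past the test. Of single-gene values under alternatives, 491 stayed on the same side of the threshold and 13 lost their call, all in IgG over input. The count of members lower in IgG than in input, 1 in the main analysis, was 0 with library size alone, upper-quartile factors, DESeq2 size factors, an IgG or input library as TMM reference, no low-count filter, DESeq2 and only the 2 groups compared, and 0 to 1 when 1 library was left out (0 without IgG library A or input library B). The count of other pathway genes bound, 2 in the main analysis, was 1 (Bid) with library size alone, upper-quartile factors, limma-voom, prior count 2 and a test against the fold minimum (glmTreat). It was 3, with Dedd2, with DESeq2 size factors, an IgG library as TMM reference, no low-count filter and DESeq2. When 1 library was left out it was 1 to 3, with 1 without p-UPF1 library A, p-UPF1 library B or input library B and 3 without input library A. The cause was not tested. The median of all genes for p-UPF1 over IgG was -0.03 in the main analysis, -0.19 with library size alone, -0.17 with upper-quartile factors and -0.12 with an input library as TMM reference. With library size alone the median for IgG over input was 0.01.

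The planned fit with the labels' replicate number as a block was not run, since the table letters its libraries. A fit with the letter as a replicate block, chosen after seeing the data, left 2 members and 2 other pathway genes bound and changed no call of a member. Fasl rests on few counts, and the part of depth in its value was not tested.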
